A study of Homo sapiens with 8 samples.

Results

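F-box proteins and cullins are the parts from which cells build the largest family of ubiquitin ligases. Genes were taken by name: symbols beginning FBXO, FBXL, FBXW or CUL followed by a digit, plus SKP1, SKP2, CCNF, RBX1 and BTRC, without antisense and pseudogene names. The rule gave 76 genes with at least 1 read, of 26786 genes with any count and 34618 in the deposited table. They were 11 F-box genes with WD40 repeats, 18 with leucine-rich repeats, 37 with other domains, 8 cullins and the 2 core subunits SKP1 and RBX1. A further 8 names were left out as antisense, divergent, intronic or pseudogene transcripts.

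Poly(A) RNA was sequenced from THP1 cells, as the labels call them, in 8 libraries. THP1 is a monocytic line of human acute myeloid leukaemia. The 4 RRM2_OE libraries came from cells engineered with the iRxI/AxA mutant, which the sample descriptions call RRM2 OE, and the 4 MOCK libraries from cells carrying an empty vector. Both groups received doxycycline at 2 µg/mL in medium with Tet-approved serum, so the drug was shared by the controls. The labels give neither the promoter that drives the construct nor whether the cells were a pool or a clone, and nothing in them makes each replicate a culture of its own. The p-values therefore take in only how far the 8 libraries scatter, which may be technical.

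A cullin is a long scaffold that holds a RING protein, which recruits the ubiquitin-loaded enzyme, at one end and a substrate receptor at the other. In the CUL1 ligase the receptor is an F-box protein, bound through the adaptor SKP1, and each F-box protein brings its own substrates. Cyclin F, encoded by CCNF, is the F-box protein that binds the RxI motif of RRM2, the small subunit of ribonucleotide reductase, and marks it for destruction. The label of the construct, iRxI/AxA mutant, names an RxI motif. Whether cyclin F binds the introduced RRM2 was not measured here. SKP2, FBXW7 and β-TrCP, encoded by BTRC and FBXW11, direct the destruction of cell cycle regulators in dividing cells.

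The construct's gene was read first as a check of the labels. RRM2 was at 223, 236, 215 and 224 CPM (counts as a rate over the scaled library size) in the RRM2_OE libraries, against 116, 128, 123 and 127 CPM in the MOCK libraries. All RRM2_OE libraries lay above all MOCK libraries, with a log2 fold change of 0.87 (SE 0.05, adjusted p = 5.64e-07 by edgeR's quasi-likelihood F test, Benjamini-Hochberg over all genes tested). Counts per gene cannot separate the introduced RRM2 from the cell's own.

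Library totals ran between 10994255 and 11686152 counts. Of 10 monocytic and myeloid markers, 9 reached 1 CPM in all 8 libraries and CD68 did not. CD14, LYZ, ITGAM and CSF1R were called higher and MPO and CSF3R lower among the 9 tested, with a median log2 fold change of 0.13, while the summed level of the list was 3480 to 3516 CPM in RRM2_OE and 3701 to 3915 CPM in MOCK. Of 11 erythroid and megakaryocyte markers, 9 likewise reached 1 CPM in all 8, among them GATA1, and the list summed to 676 to 839 CPM in RRM2_OE and 722 to 863 CPM in MOCK. ITGA2B was called higher and HBG1, HBG2 and ALAS2 lower among the 10 tested, with a median log2 fold change of -0.23. CDKN2A, commonly described as deleted in THP1, was at 48.9 to 55.5 CPM in RRM2_OE and 44.6 to 56.3 CPM in MOCK, so the cell line is used here as its label only. Of 9 T, NK and B cell markers, 4 reached 1 CPM in all 8 libraries, and the list summed to 66.0 to 81.2 CPM in RRM2_OE and 46.7 to 52.6 CPM in MOCK. CD3D, CD8A, NKG7 and CD79A were called higher and none lower among the 5 tested, with a median log2 fold change of 0.62. In this list limma-voom also called 4 higher, while DESeq2 called 2. Of 9 epithelial and fibroblast markers, 3 reached 1 CPM in all 8 libraries and KRT19 was at 0 in all, with sums of 42.5 to 46.7 CPM in RRM2_OE and 38.1 to 44.4 CPM in MOCK. PDGFRB was called higher and none lower among the 3 tested. The part of any of these in the values below was not tested, and in bulk libraries fewer cells of a type and less RNA per cell cannot be told apart.

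Most F-box and cullin genes were transcribed in these cells. A mean of at least 1 RPKM, the deposited count rate per exon length, was reached by 56 of the 76 genes, among them all 8 cullins and both core subunits. The highest level per length was that of FBXW5, a WD40 receptor, at 28.9 to 30.2 RPKM in RRM2_OE and 26.0 to 31.8 RPKM in MOCK. FBXO7, an F-box protein mutated in an early-onset parkinsonism, followed at 25.6 RPKM in RRM2_OE and 25.1 RPKM in MOCK. Then came CUL1, the scaffold of F-box ligases, at 22.5 RPKM in RRM2_OE and 21.5 RPKM in MOCK, FBXL5, the iron-sensing receptor for IRP2, at 18.8 RPKM in RRM2_OE and 19.1 RPKM in MOCK, and CUL4A, a scaffold that uses DDB1 as its adaptor, at 18.1 RPKM in RRM2_OE and 19.7 RPKM in MOCK. The libraries of FBXL5, at 18.2 to 19.4 RPKM in RRM2_OE and 18.3 to 19.7 RPKM in MOCK, overlapped with those of CUL4A in both groups, so their order is not settled. Within each group every FBXW5 value lay above every FBXO7 value, at 24.8 to 25.9 RPKM in RRM2_OE and 24.6 to 25.6 RPKM in MOCK. The order rests on the deposited total exon length, which was 3252 bp for FBXW5 and 8523 bp for FBXO7. Before division by length FBXO7 was the higher, averaging 217 CPM in RRM2_OE and 216 CPM in MOCK. FBXW5 averaged 95.2 CPM in RRM2_OE and 94.8 CPM in MOCK. Whether these lengths match the transcripts expressed was not tested.

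**Figure D1:**
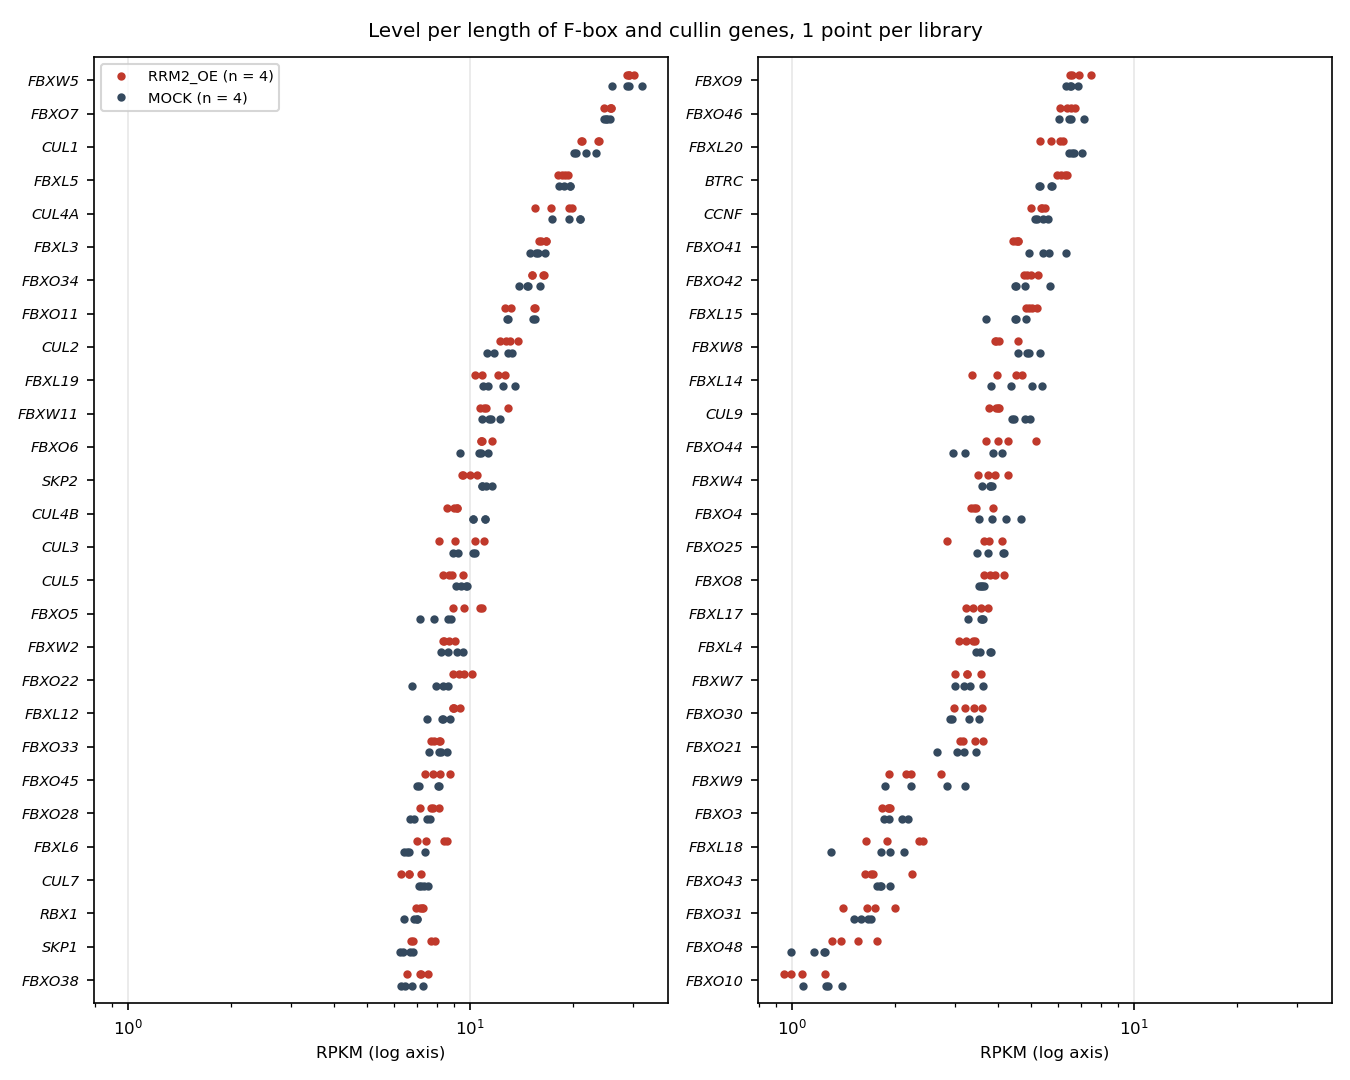
Deposited RPKM of each F-box, cullin and core gene with a mean of at least 1 RPKM, on a log axis, with 1 point per library and genes ordered by their mean; RRM2_OE points are drawn above MOCK points. FBXW5 and FBXO7 stand at the top, CCNF comes just past the middle of the order, and for most genes the points of both groups overlap.

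The rarest genes were not tested. The 13 genes that did not pass the filter on low counts had 1 to 70 reads over the 8 libraries together, and they were FBXL7, FBXL16, FBXL22, FBXO2, FBXO15, FBXO16, FBXO17, FBXO27, FBXO39, FBXO40, FBXO47, FBXW10 and FBXW12. FBXO2, a receptor for glycoproteins best known from neurons, had the most, 70 reads. FBXO2 stands beside FBXO44 and FBXO6 on chromosome 1 (hg19, 11708424 to 11734411 for the 3 genes), and its neighbours differed in level, with FBXO6 at 11.01 RPKM in RRM2_OE and 10.5 RPKM in MOCK and FBXO44 at 4.28 RPKM in RRM2_OE and 3.54 RPKM in MOCK. FBXO44 overlaps FBXO2 on the other strand.

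The comparison asked which of these genes differed between cells with the RRM2 mutant and cells with the empty vector, and few did. Of the 63 genes tested, 2 rose and 5 fell in RRM2_OE at an adjusted p below 0.05, a share of 11.1% beside 12.8% of all 15286 genes tested (7.41% higher and 5.42% lower). The share is near the background, so the count says nothing particular about these genes. Their log2 fold changes ran from -0.32 to 0.37 with a median of -0.02, beside -0.00 over all genes, and none passed 0.5 in either direction. At an unadjusted p below 0.05, 16 of the 63 passed, or 25.4%, 6 higher and 10 lower, beside 26.6% of all genes (14.3% higher and 12.3% lower). The median size of the log2 fold change was 0.10, against 0.12 over all genes. The 4 RRM2_OE and 4 MOCK libraries did not overlap for 13 of the 63 genes, 6 higher and 7 lower, beside 19.4% of all genes tested (10.5% higher and 8.89% lower).

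**Figure D2:**
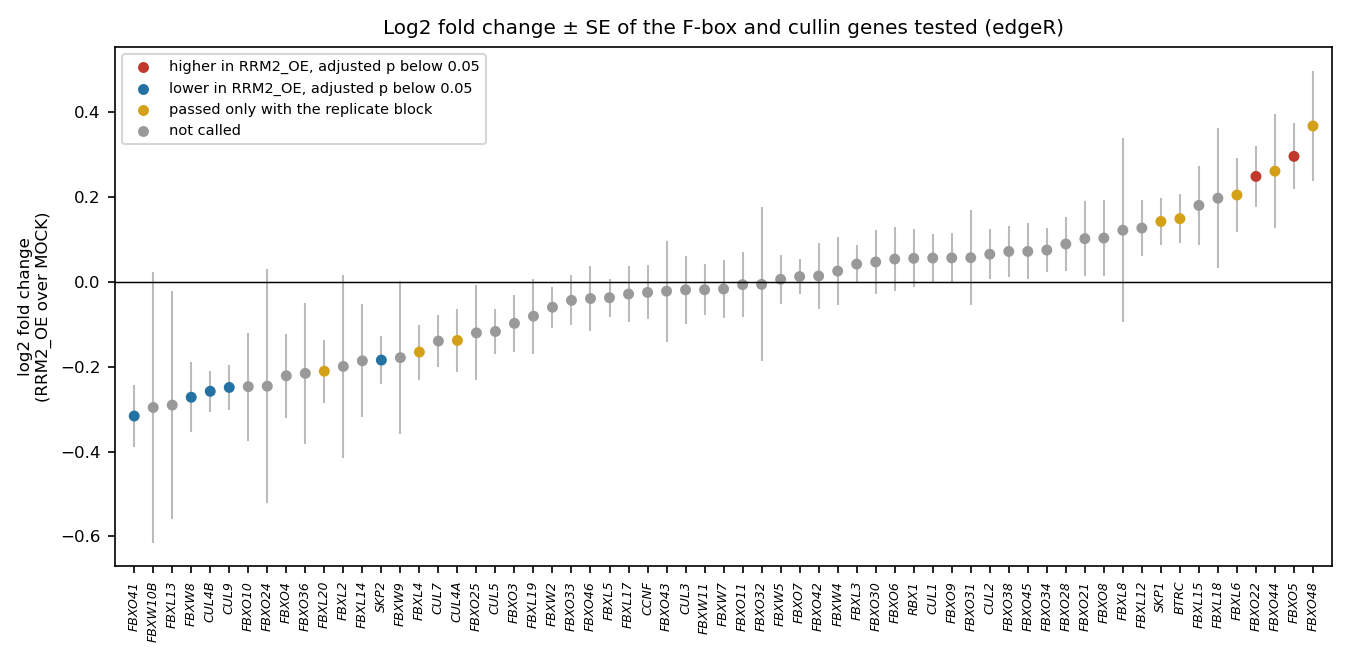
Log2 fold change of RRM2_OE over MOCK with its SE for the 63 genes tested, ordered by value and coloured by call. The values lie between -0.32 and 0.37, with 5 genes called lower, 2 called higher and 8 more that passed only with the replicate block.

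The libraries also differed by replicate number. Adding the replicate number as a block brought the calls to 7 higher and 8 lower (23.8%), beside 29.1% of all genes (15.1% higher and 14% lower), and all 7 genes called without the block remained. The genes added were FBXL6, SKP1, BTRC, FBXO44 and FBXO48, higher, and CUL4A, FBXL20 and FBXL4, lower. Libraries numbered 1 and 3 and those numbered 2 and 4 did not overlap for 10 of the 63 genes, 6 of them higher and 4 lower in replicates 1 and 3, beside 19.3% of all genes (9.61% higher and 9.71% lower). CUL3, the scaffold that takes BTB proteins as receptors, shows this: it was at 94.6, 117, 105 and 125 CPM in RRM2_OE replicates 1 to 4, against 105, 119, 107 and 117 CPM in MOCK replicates 1 to 4. Replicates 2 and 4 were the higher ones in both groups, while the groups overlapped.

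Cyclin F, the receptor for RRM2, did not differ detectably in transcript level. CCNF (ENSG00000162063, chromosome 16, 2479395 to 2508855) was at 34.0, 31.0, 34.1 and 34.2 CPM in the RRM2_OE libraries, against 36.4, 32.6, 34.3 and 32.4 CPM in the MOCK libraries. The groups overlapped, and RRM2_OE replicate 2 was the lowest of the 8 libraries. On the log2 scale CCNF differed by -0.02 (SE 0.06, adjusted p = 0.860, edgeR), and the 95% interval of -0.16 to 0.11 spans changes from -10.7% to 8.16%. Per length, CCNF was at 4.99 to 5.49 RPKM in RRM2_OE and 5.13 to 5.60 RPKM in MOCK. This was 33rd among the 76 genes, a rank that rests on the deposited exon lengths. Protein levels and the binding of cyclin F to RRM2 are not part of these data.

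The stretch just before the start of CCNF is shown with that of CUL4B, the gene with the smallest adjusted p of the 63, because both carry words of the cell cycle genes homology region (CHR) and CCAAT. Both are RefSeq sequences of GRCh38.p14, 250 bases before the gene's start, read along the gene's strand, while all other coordinates here are hg19. CCNF is chr16:2429197-2429446 on the plus strand and CUL4B is chrX:120575533-120575782 on the minus strand. Capitals mark CHR words (TTTGAA or TTCGAA) and CCAAT words, ATTGG being CCAAT on the other strand.
CCNF: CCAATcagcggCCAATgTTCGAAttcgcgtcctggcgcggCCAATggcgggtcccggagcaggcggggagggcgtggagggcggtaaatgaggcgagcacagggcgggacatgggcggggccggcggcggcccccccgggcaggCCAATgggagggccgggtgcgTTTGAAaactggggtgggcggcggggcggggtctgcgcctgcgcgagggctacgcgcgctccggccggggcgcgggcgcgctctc
CUL4B: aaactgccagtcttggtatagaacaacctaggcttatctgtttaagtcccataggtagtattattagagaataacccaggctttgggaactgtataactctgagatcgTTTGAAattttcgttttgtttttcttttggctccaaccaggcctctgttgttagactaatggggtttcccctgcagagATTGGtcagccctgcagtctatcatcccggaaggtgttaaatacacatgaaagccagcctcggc
CCNF held 2 CHR words, 80 and 228 bases before the start, and 4 CCAAT words, and CUL4B held 1 CHR word 137 bases before it and 1 CCAAT word. Of 60 F-box and cullin genes matched to the promoter table, 3 held a CHR word on either strand (CCNF, CUL1 and CUL4B), a share of 5.0% beside 14.6% of all 27305 promoters. A CCAAT word was in 15 of the 60, or 25.0%, beside 33.0% of all, and an E2F word (TTTCCCGC, TTTCGCGC, TTTGCCGC or TTTGGCGC, either strand) was in 2, FBXO9 and FBXO44, beside 2.79% of all. The words of these 3 motifs share no positions in the sequences printed. A match describes the letters only.

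The core of the CUL1 ligase changed little. CUL1 was at 75.9, 83.0, 76.1 and 83.8 CPM in the RRM2_OE libraries, against 74.8, 78.2, 71.5 and 82.1 CPM in the MOCK libraries, with a log2 fold change of 0.06 (SE 0.06, adjusted p = 0.592, edgeR). The groups overlapped, and replicates 2 and 4 were the higher ones in both. RBX1, the RING protein of the ligase, was at 22.6, 21.9, 22.7 and 21.2 CPM in the RRM2_OE libraries, against 22.3, 21.4, 21.8 and 19.6 CPM in the MOCK libraries. Its log2 fold change was 0.06 (SE 0.07, adjusted p = 0.671, edgeR), and its span overlaps XPNPEP3 on the same strand, so how reads in the overlap were counted adds uncertainty.

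SKP1, the adaptor that links CUL1 to every F-box protein, was at 88.1, 99.3, 86.8 and 97.3 CPM in the RRM2_OE libraries, against 82.4, 86.4, 81.8 and 86.0 CPM in the MOCK libraries. The groups did not overlap, though the lowest RRM2_OE value stood close to the highest MOCK value. The log2 fold change was 0.14 (SE 0.05, adjusted p = 0.1101, edgeR), and with the replicate block the adjusted p was 0.0050. SKP1 has processed pseudogene copies and overlaps TCF7 on the opposite strand, and both make its count less certain.

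Of the receptors with leucine-rich repeats, 15 were tested, and SKP2 alone passed, lower in RRM2_OE, a share of 6.67% beside 12.8% of all genes in either direction. SKP2, which brings the cell cycle inhibitor p27 to the ligase, was at 38.9, 39.6, 37.0 and 35.8 CPM in the RRM2_OE libraries, against 43.0, 43.2, 41.8 and 44.1 CPM in the MOCK libraries. All RRM2_OE libraries lay below all MOCK libraries. The log2 fold change was -0.18 (SE 0.06, adjusted p = 0.0474, edgeR), just inside the threshold, and the call was lost when any of the 8 libraries was left out (highest adjusted p 0.122), with DESeq2 (adjusted p = 0.079), with library sizes only (adjusted p = 0.081) and with no filter on low counts. SKP2 (ENSG00000145604) lies on chromosome 5 at 36152091 to 36184421. FBXL20, not called, was at 20.4, 17.1, 18.8 and 19.6 CPM in the RRM2_OE libraries, against 22.4, 21.2, 21.6 and 22.6 CPM in the MOCK libraries, with an adjusted p of 0.0846 that became 0.0224 with the block (edgeR). FBXL4, a mitochondrial protein that restrains mitophagy, differed by -0.17 on the log2 scale (adjusted p = 0.119, and 0.0472 with the block, edgeR). FBXL6 averaged 26.5 ± 2.85 CPM in RRM2_OE and 23.0 ± 1.52 CPM in MOCK (SD, n = 4 each), with an adjusted p of 0.148 that became 0.0177 with the block (edgeR). The largest difference of the class that did not pass was that of FBXL13, at -0.29 with an SE of 0.27 (adjusted p = 0.548, edgeR), a gene with 226 reads over all libraries.

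Of the 9 receptors with WD40 repeats that were tested, FBXW8 alone passed, also lower in RRM2_OE, a share of 11.1% beside 12.8% of all genes in either direction. FBXW8, the F-box protein that works with CUL7, was at 20.6, 19.9, 23.9 and 20.6 CPM in the RRM2_OE libraries, against 28.3, 25.7, 25.2 and 23.4 CPM in the MOCK libraries. The groups overlapped, since RRM2_OE replicate 3 lay above MOCK replicate 4. FBXW8 differed by -0.27 on the log2 scale (SE 0.08, adjusted p = 0.0472, edgeR). The call held without RRM2_OE replicate 3 and without MOCK replicate 4 and was lost without any one of the other libraries (highest adjusted p 0.122), and DESeq2 gave an adjusted p of 0.057. FBXW8 (ENSG00000174989) lies on chromosome 12 at 117348761 to 117468953 and overlaps an unnamed gene on the opposite strand.

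The β-TrCP pair, receptors for β-catenin and IκB, did not pass. BTRC was at 40.6, 41.2, 41.8 and 38.7 CPM in the RRM2_OE libraries, against 35.8, 38.4, 37.6 and 34.5 CPM in the MOCK libraries. The groups did not overlap, by a narrow margin, and the log2 fold change was 0.15 (SE 0.06, adjusted p = 0.118, and 0.0317 with the block, edgeR). Its close relative FBXW11 averaged 63.7 ± 4.97 CPM in RRM2_OE and 64.6 ± 2.23 CPM in MOCK (SD, n = 4 each), a log2 difference of -0.02 (adjusted p = 0.891, edgeR). FBXW7, the receptor for cyclin E and MYC, averaged 33.5 ± 2.14 CPM in RRM2_OE and 33.9 ± 2.20 CPM in MOCK (SD, n = 4 each), a log2 difference of -0.02 (adjusted p = 0.913, edgeR). FBXW5, the gene highest per length, differed by 0.01 on the log2 scale (adjusted p = 0.965, edgeR), a sign that other settings turn. FBXW10B, at -0.30 with an SE of 0.32 (adjusted p = 0.613, edgeR), had 110 reads in all and a near-identical copy, FBXW10, so its reads may be split between the copies.

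Of the 29 F-box genes with other domains that were tested, 2 rose and 1 fell, a share of 10.3% beside 12.8% of all genes. FBXO5, also called EMI1, inhibits the anaphase-promoting complex before mitosis. It was at 37.2, 40.5, 34.3 and 41.0 CPM in the RRM2_OE libraries, against 28.2, 33.3, 30.0 and 33.2 CPM in the MOCK libraries. The groups did not overlap, the highest MOCK library lying just under the lowest RRM2_OE library, and replicates 2 and 4 were the higher ones in each group. On the log2 scale it rose by 0.30 (SE 0.08, adjusted p = 0.0262, edgeR), and the call was lost without RRM2_OE replicate 2 or 4 and without MOCK replicate 1 or 3 (highest adjusted p 0.0758). FBXO5 (ENSG00000112029) lies on chromosome 6 at 153291664 to 153304714.

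FBXO22, a receptor for histone demethylases of the KDM4 family, rose as well. It was at 41.5, 43.6, 43.1 and 46.0 CPM in the RRM2_OE libraries, against 32.1, 40.1, 36.5 and 38.0 CPM in the MOCK libraries. The groups did not overlap, and MOCK replicate 1 was the lowest library. On the log2 scale it rose by 0.25 (SE 0.07, adjusted p = 0.0372, edgeR). The call held without MOCK replicate 2 and was lost without any one of the other 7 libraries (highest adjusted p 0.0987). FBXO22 (ENSG00000167196) lies on chromosome 15 at 76196200 to 76227609.

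FBXO41, an F-box protein known from neurons, fell. It was at 37.5, 35.3, 36.9 and 36.6 CPM in the RRM2_OE libraries, against 47.0, 40.2, 51.5 and 43.4 CPM in the MOCK libraries. The RRM2_OE libraries lay close together and all below the MOCK libraries, among which replicates 1 and 3 were the higher ones. The log2 fold change was -0.32 (SE 0.07, adjusted p = 0.0147, edgeR), the largest fall among the 63 genes, and was called without any one of the 8 libraries (highest adjusted p 0.0420). Within replicates 1 and 3 it was -0.41, and within replicates 2 and 4 it was -0.22. FBXO41 (ENSG00000163013) lies on chromosome 2 at 73481810 to 73511559.

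FBXO48, which acts on the energy sensor AMPK, had the largest positive difference of the 63 genes and did not pass. It was at 8.96, 7.75, 10.1 and 7.34 CPM in the RRM2_OE libraries, against 6.78, 7.08, 7.08 and 5.56 CPM in the MOCK libraries. The groups did not overlap, and the log2 fold change was 0.37 (SE 0.13, adjusted p = 0.0860, and 0.0152 with the block, edgeR). FBXO44 averaged 15.1 ± 2.41 CPM in RRM2_OE and 12.6 ± 2.04 CPM in MOCK (SD, n = 4 each), with overlapping groups and an adjusted p of 0.240 that became 0.0226 with the block (edgeR). The abundant FBXO7 and FBXO11, a receptor for BCL6, had log2 fold changes of 0.01 and -0.01 (adjusted p = 0.895 and 0.969, edgeR).

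**Figure D3:**
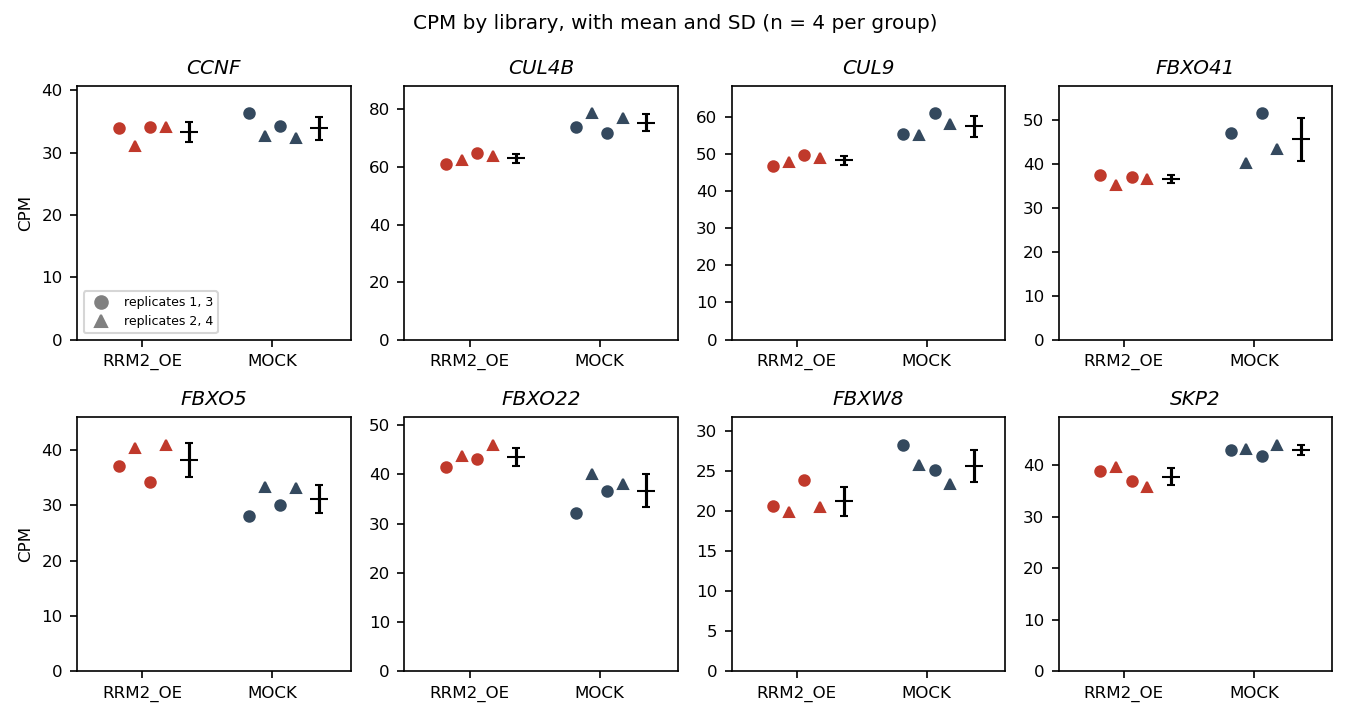
CPM in each library of CCNF and the 7 genes called, with circles for replicates 1 and 3, triangles for replicates 2 and 4, and the mean with its SD beside each group of 4. CUL4B, CUL9, FBXO41 and SKP2 are lower in every RRM2_OE library, FBXO5 and FBXO22 are higher in every RRM2_OE library, and the groups overlap for CCNF and FBXW8.

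Among the scaffolds, 2 of the 8 cullins fell and none rose in edgeR, DESeq2 or limma-voom, beside 5.42% of all genes lower and 7.41% higher. At an unadjusted edgeR p below 0.05, 4 of the 8 were lower and 0 higher, beside 12.3% and 14.3% of all genes. The median log2 fold change of the 8 was -0.13, beside -0.00 over all genes. Of the 8 values, 6 were negative, beside 7740 of all 15286 genes tested. CUL4B, which builds ligases with DDB1 and its receptors on chromatin, was at 61.2, 62.5, 64.8 and 63.9 CPM in the RRM2_OE libraries, against 74.0, 78.7, 71.9 and 77.1 CPM in the MOCK libraries. The groups stood well apart, and the log2 fold change was -0.26 (SE 0.05, adjusted p = 0.0046, edgeR). It was called without any one of the 8 libraries (highest adjusted p 0.0178), and was the only one of the 63 genes called on log2(RPKM + 1) (adjusted p = 0.0214, limma). CUL4B (ENSG00000158290) lies on chromosome X at 119658464 to 119709649.

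CUL9, a cytoplasmic cullin that binds p53, was at 46.8, 47.8, 49.6 and 48.8 CPM in the RRM2_OE libraries, against 55.3, 55.1, 60.9 and 58.1 CPM in the MOCK libraries. The groups did not overlap, and the RRM2_OE libraries were the more closely spaced. The log2 fold change was -0.25 (SE 0.05, adjusted p = 0.0093, edgeR), called without any one of the 8 libraries (highest adjusted p 0.0325). CUL9 (ENSG00000112659, chromosome 6, 43149913 to 43192325) overlaps an unnamed gene on the opposite strand. CUL7, its neighbour at 43005355 to 43021683 and its closest relative, was at 37.7, 35.01, 37.8 and 39.9 CPM in the RRM2_OE libraries, against 43.8, 41.8, 40.1 and 39.9 CPM in the MOCK libraries. The CUL7 groups did not overlap, but the highest RRM2_OE and the lowest MOCK value both round to 39.9 CPM. The log2 fold change of -0.14 did not pass (SE 0.06, adjusted p = 0.161, edgeR).

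CUL4A, the closest relative of CUL4B, was at 90.8, 111, 101 and 114 CPM in the RRM2_OE libraries, against 104, 122, 113 and 120 CPM in the MOCK libraries. The groups overlapped, replicates 2 and 4 being the higher ones in both, and within each number the RRM2_OE library was the lower. The log2 fold change was -0.14 (SE 0.07, adjusted p = 0.260, and 0.0027 with the block, edgeR), and CUL4A overlaps PCID2 on the opposite strand. CUL5 and CUL2, which take receptors through the elongins, had log2 fold changes of -0.12 (adjusted p = 0.173) and 0.07 (adjusted p = 0.540, edgeR). CUL3 had one of -0.02 (adjusted p = 0.915, edgeR).

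Summed over genes, the levels of the groups overlapped. The F-box genes together reached 346 ± 2.93 RPKM in RRM2_OE and 340.0 ± 9.03 RPKM in MOCK, and the cullins 91.8 ± 6.09 RPKM in RRM2_OE and 95.4 ± 5.05 RPKM in MOCK (mean ± SD, n = 4 each). Taken by replicate number, the cullin sum was lower in RRM2_OE for 4 of 4 numbers. It was 84.5, 95.6, 89.2 and 97.8 RPKM in RRM2_OE replicates 1 to 4, against 89.7, 98.4, 92.7 and 100.7 RPKM in MOCK replicates 1 to 4. The F-box sum was higher in RRM2_OE for 3 of 4 numbers. Libraries of the same number are not shown to be pairs, so these counts only describe the libraries.

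Genes that work with these ligases were read from lists of the pathway. Of 6 tested genes with an F-box under another family name, such as KDM2A and KDM2B, 0 passed in edgeR with or without the block, 0 in DESeq2 and 0 at an unadjusted edgeR p below 0.05. The edgeR shares of all genes were 12.8% without the block, 29.1% with it and 26.6% unadjusted, so 0 of 6 says little. A list of 27 genes held adaptors and receptors of the other cullins, with the second RING protein RNF7, ANAPC2 and CKS1B. Of these 27 genes, 2 rose and 1 fell, beside 12.8% of all genes in either direction, with a median log2 fold change of 0.01. With the block 4 were higher and 4 lower, beside 29.1% of all genes. DDB2, a damage-recognition receptor of the CUL4 ligase, averaged 118 ± 4.52 CPM in RRM2_OE and 76.3 ± 4.06 CPM in MOCK (SD, n = 4 each), a log2 fold change of 0.63 (SE 0.05, adjusted p = 9.71e-06, edgeR). DTL, also called CDT2, the CUL4 receptor that acts on chromatin-bound PCNA, averaged 79.1 ± 1.37 CPM in RRM2_OE and 58.2 ± 2.81 CPM in MOCK (SD, n = 4 each), a log2 fold change of 0.44 (SE 0.05, adjusted p = 1.24e-04, edgeR). DCAF7 fell by 0.15 on the log2 scale (adjusted p = 0.0320, edgeR), a call that held in 2 of the 8 fits that left out a library. Their adaptor DDB1 was at 322 ± 2.64 CPM in RRM2_OE and 324 ± 7.63 CPM in MOCK (SD, n = 4 each) and did not pass.

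A further list covered NEDD8 attachment, its removal by the COP9 signalosome, receptor exchange and ubiquitin transfer, with enzymes such as CDC34 and ARIH1. Of its 31 tested genes, 1 rose and none fell in edgeR, beside 12.8% of all genes in either direction, with a median log2 fold change of 0.03. At an unadjusted p below 0.05 there were 4 higher and 2 lower, beside 14.3% and 12.3% of all genes. DESeq2 called 0 of this list, against 948 higher and 735 lower over all genes. DCUN1D3, which assists NEDD8 attachment to cullins, averaged 58.1 ± 2.59 CPM in RRM2_OE and 51.6 ± 0.720 CPM in MOCK (SD, n = 4 each), a log2 fold change of 0.17 (SE 0.05, adjusted p = 0.0450, edgeR). The call was lost without any one of the 8 libraries. With the block, 4 genes of this list were higher and 2 lower, beside 29.1% of all genes.

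Transcripts of proteins that cyclin F is known to degrade were mostly higher. Of 12 such genes, 9 rose and none fell in edgeR without the block or in DESeq2, beside 7.41% of all genes higher and 5.42% lower, and the median log2 fold change was 0.46. RRM2 is one of the 9 and is the introduced gene, so the count and the median are not independent of the construct. All lists were chosen with earlier results of these data known, so the shares of all genes are not an independent comparison. E2F7, a repressor of the E2F family, averaged 26.7 ± 2.87 CPM in RRM2_OE and 14.5 ± 0.671 CPM in MOCK (SD, n = 4 each), a log2 fold change of 0.88 (SE 0.09, adjusted p = 4.80e-05, edgeR). E2F2, an activator of the same family, averaged 19.7 ± 1.29 CPM in RRM2_OE and 12.3 ± 0.759 CPM in MOCK, and CDC6, which licenses replication origins, averaged 45.7 ± 0.748 CPM in RRM2_OE and 32.4 ± 1.51 CPM in MOCK (SD, n = 4 each). NUSAP1, E2F1, E2F8, EXO1 and SLBP also rose, NUSAP1 with a call that held in 1 of the 8 fits that left out a library, and CCP110, E2F3 and FZR1 had log2 fold changes of -0.02, 0.01 and -0.13 without passing. FZR1 was also the 1 gene of the list lower at an unadjusted p below 0.05, and with the block it was called lower (adjusted p = 0.0403, edgeR).

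Of 23 genes for known substrates of SKP2, FBXW7 and β-TrCP, 13 rose and 2 fell, beside 7.41% of all genes higher and 5.42% lower, with a median log2 fold change of 0.19. CDKN1A, which encodes the inhibitor p21, was at 991, 683, 999 and 703 CPM in the RRM2_OE libraries, against 347, 249, 334 and 246 CPM in the MOCK libraries, a log2 fold change of 1.52 (SE 0.17, adjusted p = 4.84e-04, edgeR). The groups stood far apart, and replicates 1 and 3 were the higher ones in both. CCNE2, a cyclin that drives entry into S phase, averaged 55.1 ± 1.33 CPM in RRM2_OE and 34.0 ± 2.90 CPM in MOCK, and TOB1, an antiproliferative protein, averaged 62.9 ± 3.84 CPM in RRM2_OE and 44.3 ± 2.30 CPM in MOCK (SD, n = 4 each). MYC, a transcription factor of growth, averaged 207 ± 5.71 CPM in RRM2_OE and 290 ± 12.7 CPM in MOCK (SD, n = 4 each), a log2 difference of -0.49 (adjusted p = 3.33e-05, edgeR), and SREBF1 fell by 0.23 (adjusted p = 0.0397, edgeR), a call that held in 3 of those 8 fits. CDKN1B, which encodes the SKP2 substrate p27, differed by 0.04 on the log2 scale (adjusted p = 0.783, edgeR). These are transcript levels, and ubiquitin ligases act on the proteins, which were not measured here.

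**Figure D4:**
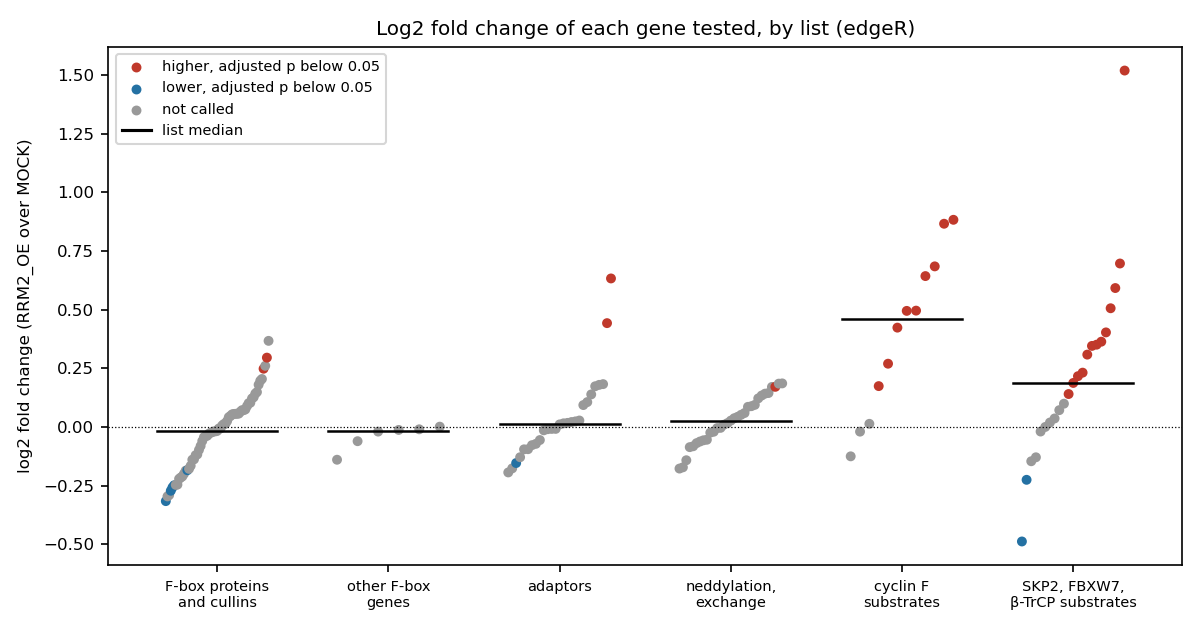
Log2 fold change of RRM2_OE over MOCK of each gene tested, as 1 point per gene, for the F-box and cullin genes and 5 lists of related genes, with the median of each list as a bar. F-box and cullin genes lie between -0.32 and 0.37. DDB2 and DTL among the adaptors and 13 substrates of the other receptors are called higher. So are 9 cyclin F substrates, among them RRM2, the introduced gene.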

How the data were processed

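The 8 libraries were stranded and poly(A)-selected, each made out of 200 ng of RNA, per the labels. Tools named in the submitters' processing notes are HTSeq 0.11.2, TopHat2 and bcl2fastq 2.18.0.12, with genome hg19 (GRCh37); which annotation and which strand option HTSeq used is not given in the sources used here. Whole-number counts per Ensembl gene and an exon length in bp are deposited. The authors' RPKM was recomputed from these counts to within 4.7e-06. Coordinates are the deposited ones.

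Genes were named by Ensembl ID (32562 from current names, 299 from GENCODE, 1757 unnamed). Of 145 list entries, 144 were matched. Members and lists were chosen with earlier results of these data known. The main test was that of edgeR 4.0.16 (R 4.3.3, filterByExpr, TMM, robust quasi-likelihood F test, group only, Benjamini-Hochberg over 15286 genes, threshold 0.05), and the steps were tested on simulated data. The biological coefficient of variation was 7.20%. The 95% interval of a log2 fold change uses the fit's t distribution. With DESeq2 1.42.0 and limma 3.58.1, normalization, filters, pseudocounts of 1 and 0.1 on log2 RPKM, a replicate block, an odd/even term and leaving out each library were tried.

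Same-numbered libraries deviated together from their group means (r = 0.25, 0.23, 0.22 and 0.23, all above 0.1). Libraries of the other group with a different number, both odd or both even, correlated as much (0.23 to 0.29), and the rest did not (-0.28 to -0.21). The correlations therefore set odd and even numbers apart, and they do not show that libraries of the same number are pairs.

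Values are given for RRM2, CCNF, SKP1, SKP2, CUL1, RBX1, BTRC, every member called, the 5 members highest in RPKM, the 3 largest uncalled differences at 1 CPM or more, and up to 4 genes per list with the smallest adjusted p below 0.05. Any further gene given with a value was picked with its value known. Of the 76 spans, 37 share bases with a gene on the other strand and 7 with one on their own strand.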

Additional observations from a re-analysis of the deposited data

Results flagged for a closer look

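Of 62 groups of 4 libraries examined for the genes named by rule, 4 had a library that stood apart from the other 3, and chance gives about 1 in 20. For CCNF, RRM2_OE replicate 2 was the lowest at 31.0 CPM, against 34.0 to 34.2 CPM in the other RRM2_OE libraries. For FBXW8, RRM2_OE replicate 3 was the highest at 23.9 CPM, against 19.9 to 20.6 CPM in the other RRM2_OE libraries. For DCUN1D3, MOCK replicate 2 was the highest at 52.6 CPM, against 51.1 to 51.3 CPM in the other MOCK libraries. For E2F7, MOCK replicate 1 was the highest at 15.5 CPM, against 14.1 to 14.2 CPM in the other MOCK libraries.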

How the results depend on the processing

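Over all genes tested, 1962 were called, 57.7% of them higher. The replicate block gave 2303 and 2143, the odd/even term 2427 and 2277, and a threshold of 0.01 gave 530 and 281. On log2(RPKM + 1) there were 1047 higher and 465 lower, and on log2(RPKM + 0.1) 1022 and 466, so that the share of higher calls was 69.2% and 68.7% of the calls. Replicates 1 and 3 alone gave 1330 lower. Leaving out a library gave 808 to 937 higher and 542 to 607 lower, the fewest lower without MOCK replicate 2 (542) and without RRM2_OE replicate 1 or 3 (545). Among F-box and cullin genes, 2 were called higher and 5 lower. The block gave 7 and 8, the odd/even term 7 and 10 (beside 30.8% of all genes), replicates 1 and 3 alone 4 higher, DESeq2 3 lower, log2(RPKM + 1) 0 and 1, log2(RPKM + 0.1) 0 and 2, and a threshold of 0.01 gave 0 and 2. Leaving out a library gave 0 to 2 higher (0 without RRM2_OE replicate 2 or 4 or MOCK replicate 1 or 3) and 3 to 4 lower. CUL4B kept its call in every alternative fit run, FBXO41 lost it on log2(RPKM + 1), and CUL9 lost it on both RPKM scales. For log2 fold changes close to 0 the sign turned. That of CCNF was 0.0056 within replicates 2 and 4, 0.0082 without RRM2_OE replicate 2 and 0.0096 without MOCK replicate 1, over a range of -0.047 to 0.0096 when libraries were left out. That of FBXW5 was -0.0017 with no low count filter, -0.049 within replicates 1 and 3, -0.015 without RRM2_OE replicate 3, -0.042 without MOCK replicate 2 (range -0.042 to 0.051 when libraries were left out) and -9.2e-06 with DESeq2, and that of FBXO7 was -0.015 within replicates 2 and 4. The causes were not tested. Over all genes named by rule and all alternatives, 568 values kept their direction and side of the threshold, 63 lost the call, 11 gained one and 9 turned sign. With 4 libraries per group and about the same depth in each, small differences can be missed, and 13 genes of low count were left out of the main test. They entered the edgeR test without a filter and the DESeq2 fit.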
